A study of Mus musculus with 8 samples.

Results

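The 10 CC chemokine ligands *Ccl2*, *Ccl3*, *Ccl4*, *Ccl5*, *Ccl6*, *Ccl7*, *Ccl8*, *Ccl9*, *Ccl12* and *Ccl24* were followed in single cells of the mouse kidney after ischemia-reperfusion injury (IRI), with and without entospletinib, an inhibitor of spleen tyrosine kinase (SYK). They were chosen by gene name, as signals that call monocytes and lymphocytes into tissue, and all 10 were found among the 57010 genes measured. Single-cell RNA sequencing covered 7 conditions of C57BL/6 mice, each a single pool of kidney suspensions from 3 mice. The control pool came from mice with untouched kidneys that received no IRI. The other 6 pools came from mice with IRI of the left kidney at day 1, 7 or 14, injected intraperitoneally under vehicle (DMSO) or under entospletinib from before surgery onward. Dead cells were excluded with a dye and leukocytes were enriched by light scatter in a sorter, so the makeup of a pool is that of the sorted cells. With 1 pool per condition there are no replicate mice, no p-value is given for any comparison, and differences between mice cannot be separated from those between conditions.

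Of 120281 cell barcodes, 79389 passed the limits on quality, and these held between 11842327 counts (entospletinib day 14) and 71691915 counts (vehicle day 1) per condition. The median per cell was 2930 counts in the control, 2432 to 2733 under vehicle, and 2072, 2742 and 960 under entospletinib at days 1, 7 and 14. The limit on ribosomal protein gene counts was applied to barcodes within the limits on genes, counts and mitochondrial share. Of these it removed between 4.23% and 8.53% in the control and vehicle conditions and 29.0%, 12.1% and 24.0% in the entospletinib conditions. The cells of each pool were divided over 8 sublibraries, which are portions of 1 plate of barcoded cells, and 13712 combinations of wells occurred in more than 1 sublibrary and were kept apart by sublibrary. Cell classes were rebuilt from markers, so each carries the ending "-like". The 10 macrophage markers summed to between 3283 and 5124 counts per 1000000 (CPM) in macrophage-like cells and to between 1110 and 1666 CPM in monocyte-like cells. The 10 monocyte markers summed to between 2296 and 5308 CPM in monocyte-like cells and to between 71.1 and 438 CPM in macrophage-like cells.

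CC chemokines are small secreted proteins with a pair of adjacent cysteines, and they guide leukocytes by binding G protein-coupled receptors of the CCR family. CCL2, CCL7 and CCL12 act on CCR2, the receptor by which inflammatory monocytes leave the bone marrow and enter injured tissue such as the kidney. CCL3, CCL4 and CCL5 attract monocytes, macrophages, T cells and NK cells, CCL6 and CCL9 are rodent ligands of CCR1, CCL8 of the mouse acts on CCR8, and CCL24 is an eotaxin that acts on CCR3 of eosinophils.

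Of the 10 genes, 9 lie on chromosome 11 in 2 groups, by the GENCODE annotation of GRCm38. *Ccl2* (chr11:82035571-82037453), *Ccl7* (chr11:82045712-82047525), *Ccl12* (chr11:82101845-82103400) and *Ccl8* (chr11:82115185-82116799) are on the plus strand within 81229 bases. *Ccl5* (chr11:83525778-83530518), *Ccl9* (chr11:83572919-83578636), *Ccl6* (chr11:83587882-83593087) and *Ccl3* (chr11:83647844-83649355) are on the minus strand and *Ccl4* (chr11:83662584-83664683) is on the plus strand, all within 138906 bases. *Ccl24* is alone on chromosome 5 (chr5:135569937-135573049, minus strand). *Ccl6*, *Ccl9* and *Ccl24* have 4 exons in their longest model and the other members 3.

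The 250 bases before the start of transcription are shown for 4 members, because *Ccl6* and *Ccl9*, like *Ccl7*, were lower under entospletinib in all cells at each day without overlap of sublibraries, and lie side by side, *Ccl12* was read mainly in macrophage-like cells, and *Ccl3* differed between the pools of day 14. They are from RefSeq on GRCm38.p6, where 5 of the 10 members had an entry (*Ccl3*, *Ccl6*, *Ccl8*, *Ccl9* and *Ccl12*), and are written 5′ to 3′ on the strand of the gene. The intervals are chr11:83593088-83593337 (minus strand) for *Ccl6*, chr11:83578637-83578886 (minus strand) for *Ccl9*, chr11:82101595-82101844 (plus strand) for *Ccl12* and chr11:83649379-83649628 (minus strand) for *Ccl3*. Capitals mark matches, on either strand, to the TATA box (TATAAA), the ETS core (AGGAAG, or CTTCCT on the other strand), the AP-1 element (TGANTCA), the STAT element (TTCNNNGAA) and the NF-kB site, searched by its consensus.
Ccl6: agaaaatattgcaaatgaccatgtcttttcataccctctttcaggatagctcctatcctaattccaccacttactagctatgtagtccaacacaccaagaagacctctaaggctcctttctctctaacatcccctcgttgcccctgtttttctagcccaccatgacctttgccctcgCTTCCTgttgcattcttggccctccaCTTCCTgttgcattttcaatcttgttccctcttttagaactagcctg
Ccl9: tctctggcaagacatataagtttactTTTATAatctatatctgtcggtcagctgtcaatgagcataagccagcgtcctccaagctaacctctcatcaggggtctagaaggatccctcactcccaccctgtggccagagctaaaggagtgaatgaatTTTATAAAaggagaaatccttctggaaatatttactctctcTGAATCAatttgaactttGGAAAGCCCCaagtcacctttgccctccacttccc
Ccl12: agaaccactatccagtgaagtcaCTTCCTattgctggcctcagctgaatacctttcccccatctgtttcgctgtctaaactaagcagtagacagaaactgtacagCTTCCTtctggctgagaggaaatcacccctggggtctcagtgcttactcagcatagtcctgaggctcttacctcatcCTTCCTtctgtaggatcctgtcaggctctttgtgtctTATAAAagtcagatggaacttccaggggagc
Ccl3: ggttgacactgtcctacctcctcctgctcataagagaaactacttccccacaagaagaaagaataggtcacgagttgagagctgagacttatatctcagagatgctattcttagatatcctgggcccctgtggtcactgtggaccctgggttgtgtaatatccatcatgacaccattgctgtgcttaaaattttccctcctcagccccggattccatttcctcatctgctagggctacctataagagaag

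The *Ccl6* stretch held 2 ETS cores, which begin 73 and 47 bases before the start. *Ccl9* held an AP-1 element from 53 to 47 bases before the start, an NF-kB match from 35 to 26 bases before it and 3 TATA matches, 2 of which overlap on opposite strands. *Ccl12* held a TATA box from 31 to 26 bases before the start and 3 ETS cores, and *Ccl8* held a TATA box from 32 to 27 bases before the start and 1 ETS core. *Ccl3* had no match, which says only that these letters are not in this window. Among 32851 RefSeq promoter stretches of the same length, 12.4% held the TATA box, 29.5% the ETS core, 6.75% the AP-1 element, 7.02% the STAT element and 3.90% the NF-kB site, so the ETS core is common, and a match is a description and not a proven site. *Ccl6* and *Ccl9* shared a run of 13 bases, gccctccacttcc, which began 55 bases before the start of *Ccl6* and 14 before that of *Ccl9*, while every other pair shared at most 9 bases in a row.

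Levels are CPM of summed counts with the SD over the 8 sublibraries, which is technical error. Ratios are on the log2 scale and relative to the median ratio of all genes tested in the same cells, those with a mean of at least 20 CPM over the 7 conditions. A member is said to have risen or fallen only when it was tested, its relative log2 ratio was beyond 1 and all 8 sublibraries lay on the same side of that median. In all cells 5 members were tested (*Ccl2*, *Ccl3*, *Ccl4*, *Ccl6* and *Ccl9*) with 6596 genes, in macrophage-like cells 7 (*Ccl7* and *Ccl12* as well) with 6017 genes, and in monocyte-like cells 6 (*Ccl7* as well) with 5466 genes. The others did not reach the limit and are given by their values and counts.

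Taking all cells together, IRI under vehicle raised *Ccl2*, *Ccl3*, *Ccl4*, *Ccl6* and *Ccl9* at day 1, and *Ccl2*, *Ccl6* and *Ccl9* were still higher than in the control at day 14. Under entospletinib, *Ccl9* was lower than under vehicle at all 3 days, *Ccl6* at days 1 and 7, *Ccl2* at day 7 and *Ccl3* at day 14. *Ccl4* was at nearly the same level with drug and vehicle at day 1. The 3 comparisons of vehicle with control share the control pool.

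*Ccl2*, the main monocyte attractant of the family, was at 8.30 ± 2.96 CPM in the control, at 96.9 ± 9.78, 63.0 ± 5.15 and 30.4 ± 2.72 CPM at days 1, 7 and 14 under vehicle, and at 51.5 ± 6.65, 25.6 ± 3.38 and 29.6 ± 6.91 CPM under entospletinib. The lowest sublibrary under vehicle at day 1 (79.4 CPM) lay above the highest under entospletinib (60.4 CPM), and the sublibraries of day 7 did not overlap either. At day 14 the 2 pools overlapped. Relative to the median gene, *Ccl2* rose under vehicle by 3.58, 3.21 and 1.92, and it fell under entospletinib by 1.64 at day 7, with differences of -0.91 at day 1 and -0.14 at day 14.

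*Ccl7*, also a CCR2 ligand, was at 1.71 ± 1.097 CPM (65 counts) in the control, at 34.4, 29.7 and 15.4 CPM under vehicle and at 11.4, 6.33 and 8.28 CPM under entospletinib. Its sublibraries did not overlap between vehicle and control or between entospletinib and vehicle at any day. It did not reach the limit for a test in all cells, and its relative log2 ratios were 4.35, 4.40 and 3.21 for vehicle and -1.58, -2.57 and -0.99 for entospletinib. *Ccl12*, another CCR2 ligand, was at 3.98 CPM in the control, at 15.7, 9.12 and 10.8 CPM under vehicle and at 21.0, 9.79 and 5.40 CPM under entospletinib. Its day 1 levels overlapped between the treatments (0.42 ± 0.24, not tested, 7 of 8 sublibraries higher under entospletinib).

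**Figure D1:**
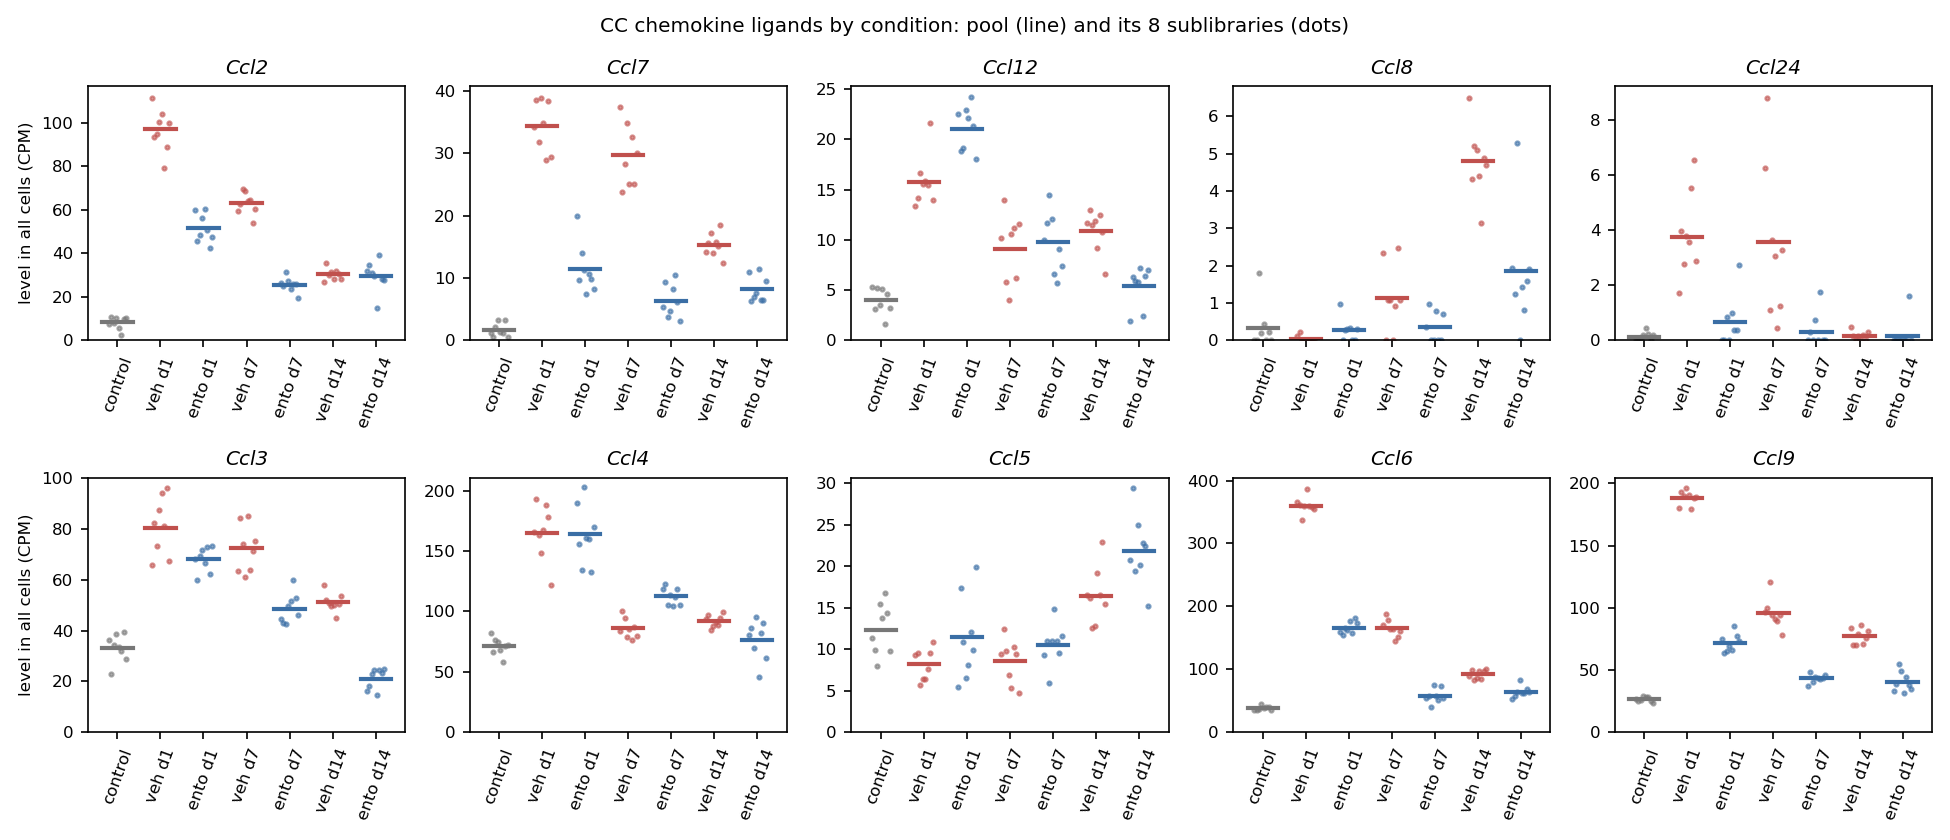
Levels of the 10 members in all cells (vertical axis, CPM, a linear scale that starts at 0 in each panel) for the control (gray), vehicle (red, veh) and entospletinib (blue, ento) pools at days 1, 7 and 14. The line is the pool and the dots are its 8 sublibraries; *Ccl6* and *Ccl9* of vehicle day 1 stand above every other pool, at 360.2 and 188.5 CPM.

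*Ccl6* showed the widest gap between vehicle day 1 and the other pools. It was at 37.8 ± 3.32 CPM in the control, at 360.2 ± 13.6, 165.7 ± 14.2 and 91.7 ± 7.00 CPM under vehicle and at 165.9 ± 9.99, 57.5 ± 11.4 and 63.8 ± 8.67 CPM under entospletinib. Sublibraries of vehicle and entospletinib did not overlap at any day. *Ccl6* rose under vehicle by 3.29, 2.42 and 1.33 and fell under entospletinib by 1.11 and 1.87 at days 1 and 7, with -0.62 at day 14.

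*Ccl9*, the other CCR1 ligand of the rodent pair, was at 26.3 ± 2.09 CPM in the control, at 188.5 ± 5.86, 95.9 ± 12.1 and 76.9 ± 6.48 CPM under vehicle and at 71.2 ± 7.25, 43.2 ± 3.25 and 40.6 ± 8.26 CPM under entospletinib. Again the sublibraries of the 2 treatments were apart at each day. *Ccl9* rose under vehicle by 2.88, 2.16 and 1.60 and fell under entospletinib by 1.40, 1.496 and 1.02. The last value lies at the limit of 1, and over the other settings it ran from -1.25 to -0.71.

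*Ccl3* (CCL3, or MIP-1alpha) was at 33.0 ± 5.51 CPM in the control, at 80.6, 72.5 and 51.3 CPM under vehicle and at 68.0, 48.4 and 21.0 CPM under entospletinib. It rose by 1.32 and 1.42 at days 1 and 7 and fell under entospletinib by 1.39 at day 14, where the highest sublibrary (24.7 CPM) was below the lowest under vehicle (45.1 CPM) and the pool was below the control. *Ccl4* (MIP-1beta) was at 71.1 ± 6.94 CPM in the control, at 165.0, 85.8 and 92.1 CPM under vehicle and at 163.7, 112.6 and 76.2 CPM under entospletinib, and it rose at day 1 by 1.25. Its relative ratios of entospletinib to vehicle were -0.00, 0.04 and -0.38, none of which passed. At day 7 its plain level was higher under entospletinib with no overlap of sublibraries, but the median gene was higher by 0.35 there too.

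*Ccl5*, the lymphocyte chemokine RANTES, *Ccl8* and *Ccl24* were low and not tested in all cells. *Ccl5* was at 12.3 CPM in the control, 8.15, 8.53 and 16.4 CPM under vehicle and 11.4, 10.4 and 21.9 CPM under entospletinib, and its sublibraries overlapped between treatments at each day. *Ccl8* had 13 counts in the control, 3, 23 and 240 counts under vehicle (4.81 CPM at day 14) and 7, 8 and 22 counts under entospletinib. These counts come from pools of unequal depth. At day 14 the plain log2 ratio of entospletinib to vehicle was -1.34, and the sublibraries overlapped (0 to 5.28 against 3.15 to 6.49 CPM). *Ccl24* had 5 counts in the control, 270, 73 and 8 counts under vehicle and 17, 7 and 2 counts under entospletinib, that is 3.77, 3.58 and 0.16 CPM against 0.67, 0.32 and 0.17 CPM. Under vehicle *Ccl8* was thus highest at day 14, and *Ccl24* at days 1 and 7, both from few counts.

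Of the 10 members, 5, 4 and 3 rose under vehicle at days 1, 7 and 14 in all cells, where 10.9%, 7.17% and 4.81% of all genes tested were called higher. Under entospletinib 2, 3 and 2 fell, where 1.39%, 5.49% and 3.52% of genes tested were called lower, and no member was called in the opposite direction in either set. The median relative ratio over all 10 members was 2.45, 2.07 and 1.41 under vehicle and -0.57, -1.57 and -0.81 under entospletinib, beside 0 for all genes tested. Cells of the kidney itself made up a smaller part of the vehicle pools than of the others: endothelial-like cells were 21.8% of the control, 6.13%, 3.74% and 2.33% under vehicle and 13.7%, 21.4% and 10.49% under entospletinib. Among leukocyte-like cells alone, *Ccl3* and *Ccl4* no longer passed at day 1 (0.85 and 0.79), nor *Ccl3* at day 7 (0.94) or *Ccl6* at day 14 (0.87), *Ccl6* under entospletinib at day 1 was at -0.91, and *Ccl9* at day 14 at -0.71.

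The members differed in the classes that carried them. With the 7 pools together, *Ccl2* and *Ccl7* were at 138 ± 11.5 and 46.8 ± 4.47 CPM in monocyte-like cells and at 55.4 and 25.1 CPM in macrophage-like cells. Of the 11600 monocyte-like cells, 6644 came from the vehicle day 1 pool. Pool by pool, *Ccl7* was higher in macrophage-like than in monocyte-like cells in 6 of 7 pools, all but vehicle day 7, and *Ccl2* in 4 of 7, vehicle day 14 and the 3 entospletinib pools. In each of those pools the sublibraries of both classes overlapped, and the classes were apart only where monocyte-like cells were higher, at vehicle day 7 for *Ccl7* and vehicle days 1 and 7 for *Ccl2*. *Ccl12* was at 33.1 CPM in macrophage-like cells and at most 5.94 CPM in any other named class, with 8.85 CPM in the unnamed cluster 21 (449 cells, mostly called doublets), and macrophage-like cells held 80.1% of its counts and 81.0% of those of *Ccl8*. *Ccl24* was at 6.85 CPM in monocyte-like cells, which held 88.0% of its counts, and at 0.34 CPM or less in every other named class, with 2.36 CPM (8 counts) in cluster 21.

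*Ccl5* was highest in NK cell-like, migratory dendritic cell (DC)-like and T cell-like cells. It was at 441 CPM (341 to 559 over sublibraries) in NK cell-like cells, at 242 CPM (115 to 370) in migratory DC-like cells and at 116 CPM (92.6 to 149) in T cell-like cells, so that each neighbour in this order overlaps the next over sublibraries. All other named classes were at 12.1 CPM or less, B cell-like and ILC2-like cells at 2.64 and 3.19 CPM, and the unnamed clusters 21 and 24 were at 41.9 and 67.8 CPM.

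*Ccl6* and *Ccl9* parted in neutrophils. *Ccl6* was at 453 CPM in monocyte-like and 406 CPM in neutrophil-like cells, whose sublibraries overlap, at 107 CPM in type 2 conventional dendritic cell (cDC2)-like cells and at 86.6 CPM in macrophage-like cells. *Ccl9* was at 291 CPM in monocyte-like and 115 CPM in cDC2-like cells, and at 32.3 CPM in neutrophil-like cells. *Ccl4* was at 230 CPM in macrophage-like and 206 CPM in neutrophil-like cells, which overlap, and *Ccl3* was at 144 CPM in neutrophil-like and 104 CPM in macrophage-like cells, which overlap too, with pDC-like cells at 156 CPM for *Ccl4* and 16.6 CPM for *Ccl3*. These are levels over the 7 pools together, and single pools differed. At vehicle day 7 *Ccl6* was at 468 CPM in monocyte-like and 169 CPM in neutrophil-like cells, and at entospletinib day 1 at 290 and 484 CPM, apart in both pools and in opposite directions. At vehicle day 1 macrophage-like cells were above neutrophil-like cells in *Ccl4* (614 and 232 CPM) and *Ccl3* (265 and 123 CPM), and at vehicle days 7 and 14 they were below them in *Ccl3* (61.1 and 296 CPM, 71.2 and 175 CPM), each without overlap.

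The smallest class gave the top value of 4 members. In 84 basophil or mast cell-like cells *Ccl3* was at 1218 ± 596 CPM (201 counts), *Ccl4* at 1557 ± 589 CPM (257 counts), *Ccl6* at 782 ± 225 CPM and *Ccl9* at 600 ± 441 CPM. For *Ccl3* and *Ccl4* their sublibraries lay above those of each other class, for *Ccl6* too, and for *Ccl9* they overlapped with monocyte-like cells. When each cell was placed on its own by its marker counts, the levels were 739, 1004, 523 and 355 CPM, still the first of all classes for each.

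**Figure D2:**
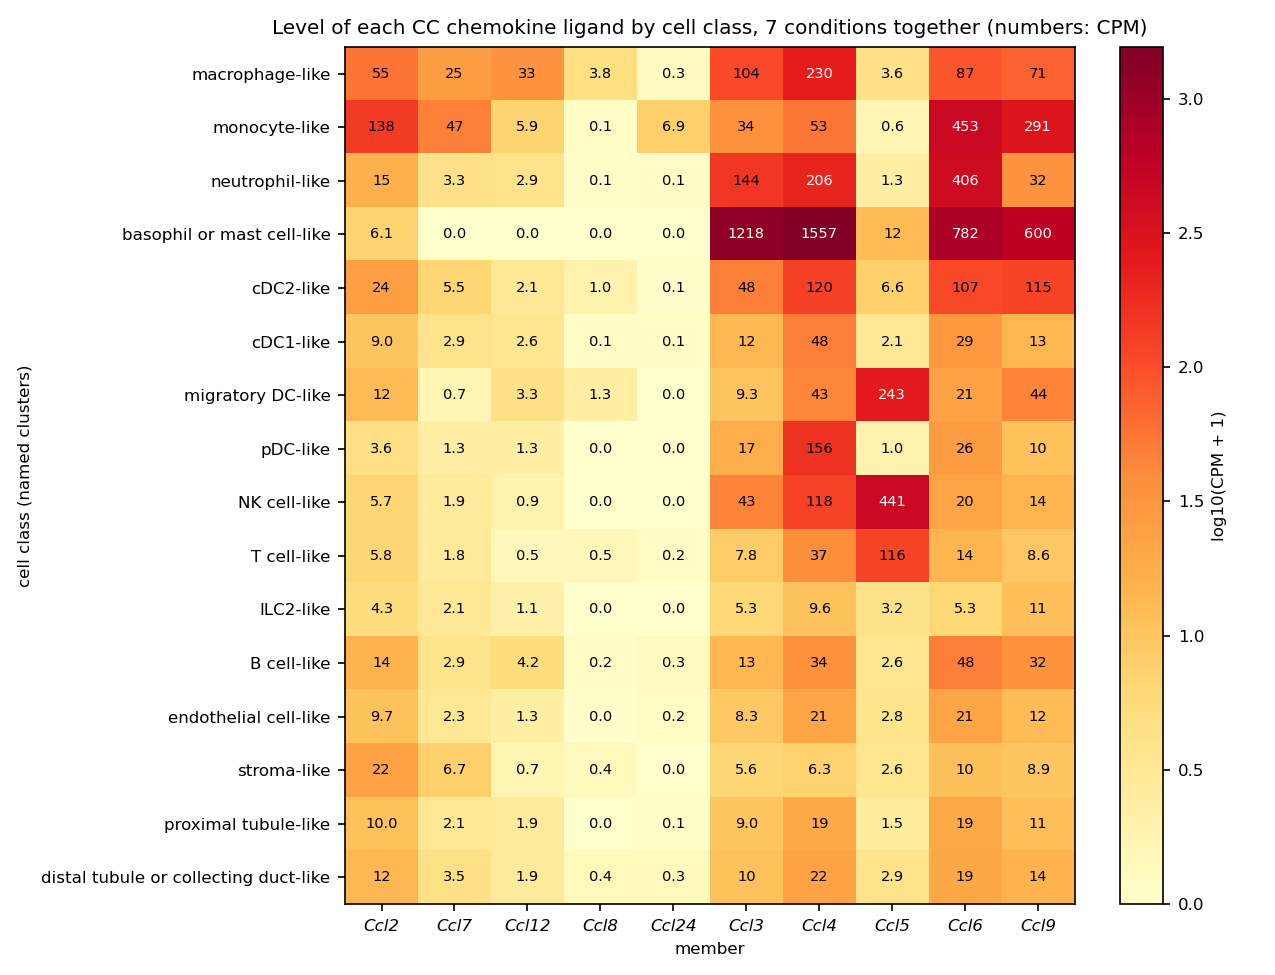
Level of each member (columns) in each rebuilt cell class (rows), with the 7 conditions together; the color is log10(CPM + 1) and the number in a field is CPM. *Ccl5* is high in NK cell-like, migratory DC-like and T cell-like cells only, the order of monocyte-like and macrophage-like cells for *Ccl2* and *Ccl7* does not hold in every pool, and the basophil or mast cell-like class of 84 cells has the top value for *Ccl3*, *Ccl4*, *Ccl6* and *Ccl9*.

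Because depth differs between conditions, shares of cells with a count were compared after thinning each cell to 500 counts. *Ccl6* was seen in 16.2% of monocyte-like cells (56.4% unthinned, median 3750 counts) and *Ccl5* in 20.04% of NK cell-like cells (43.2% unthinned). B cell-like cells, with a median of 1566.5 counts, were set beside them, with 0.98% for *Ccl6*, 0.07% for *Ccl5*, 1.01% for *Ccl4* and 0.38% for *Ccl2*. Free RNA, doublets (10.8% of this cluster, kept) and RNA of the cells themselves were not told apart there. The B cell-like share moved with the pool: *Ccl6* was in 2.82% of 284 B cell-like cells under vehicle at day 1 and in 0.47% of 426 in the control.

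*Ccl3* and *Ccl4*, which lie 13228 bases apart, were often seen in the same cell. Among macrophage-like cells of vehicle day 1, thinned, *Ccl4* was in 48.6% of 220 cells with a *Ccl3* count and in 18.5% of 1952 cells without one, and in neutrophil-like cells in 34.4% of 421 and 7.53% of 7504. Over the 7 pools, *Ccl3* and *Ccl4* were at 175 and 401 CPM in macrophage-like cluster 5 and lower in clusters 1 and 2. In neutrophil-like cells they were at 182 and 236 CPM in cluster 0 and at 44.5 and 128 CPM in cluster 11. These shares carry that mix of clusters. *Ccl7* was in 9.42% of 414 monocyte-like cells with *Ccl2* and in 1.51% of the others. In macrophage-like cells this pair was at 3.70% of 81 (0.77% to 10.4%) and 2.06% (1.49% to 2.76%), which overlap, and in neutrophil-like cells at 0 of 46 (upper limit of the exact interval 7.71%) and 0.15%. *Ccl9* was seen in 24.3% of 1298 monocyte-like cells with *Ccl6* and in 11.3% of the others. The monocyte-like cells of that pool were 44.6% cluster 8 and 55.4% cluster 4, and over the 7 pools cluster 8 was the higher in *Ccl2*, *Ccl7*, *Ccl6* and *Ccl9* (292, 103, 695 and 474 CPM against 19.7, 3.01, 266 and 149 CPM). These shares therefore carry the mix of both clusters, and shares within a cluster were not computed. In neutrophil-like cells *Ccl9* was in 1.20% of those with *Ccl6* and in 1.54% of those without. The exact intervals of the last pair overlap (0.72% to 1.90% and 1.25% to 1.87%).

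The classes that held the counts shifted with time and treatment. Of the *Ccl2* counts, monocyte-like cells held 78.2% under vehicle and 43.6% under entospletinib at day 1, and 49.6% and 7.3% at day 7, while macrophage-like cells held 71.4% under entospletinib at day 7. *Ccl7* moved in the same way, from 74.6% to 30.6% in monocyte-like cells at day 1 and from 55.4% to 4.3% at day 7. *Ccl3* counts at day 7 were 51.0% neutrophil-like under vehicle and 70.8% macrophage-like under entospletinib. The classes themselves differed between the pools: monocyte-like cells were 3.14% of cells in the control, 32.3%, 13.02% and 3.93% under vehicle and 23.8%, 5.59% and 5.10% under entospletinib, and neutrophil-like cells 0.62%, then 38.5%, 29.6% and 11.7%, and 21.9%, 1.78% and 0.41%.

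**Figure D3:**
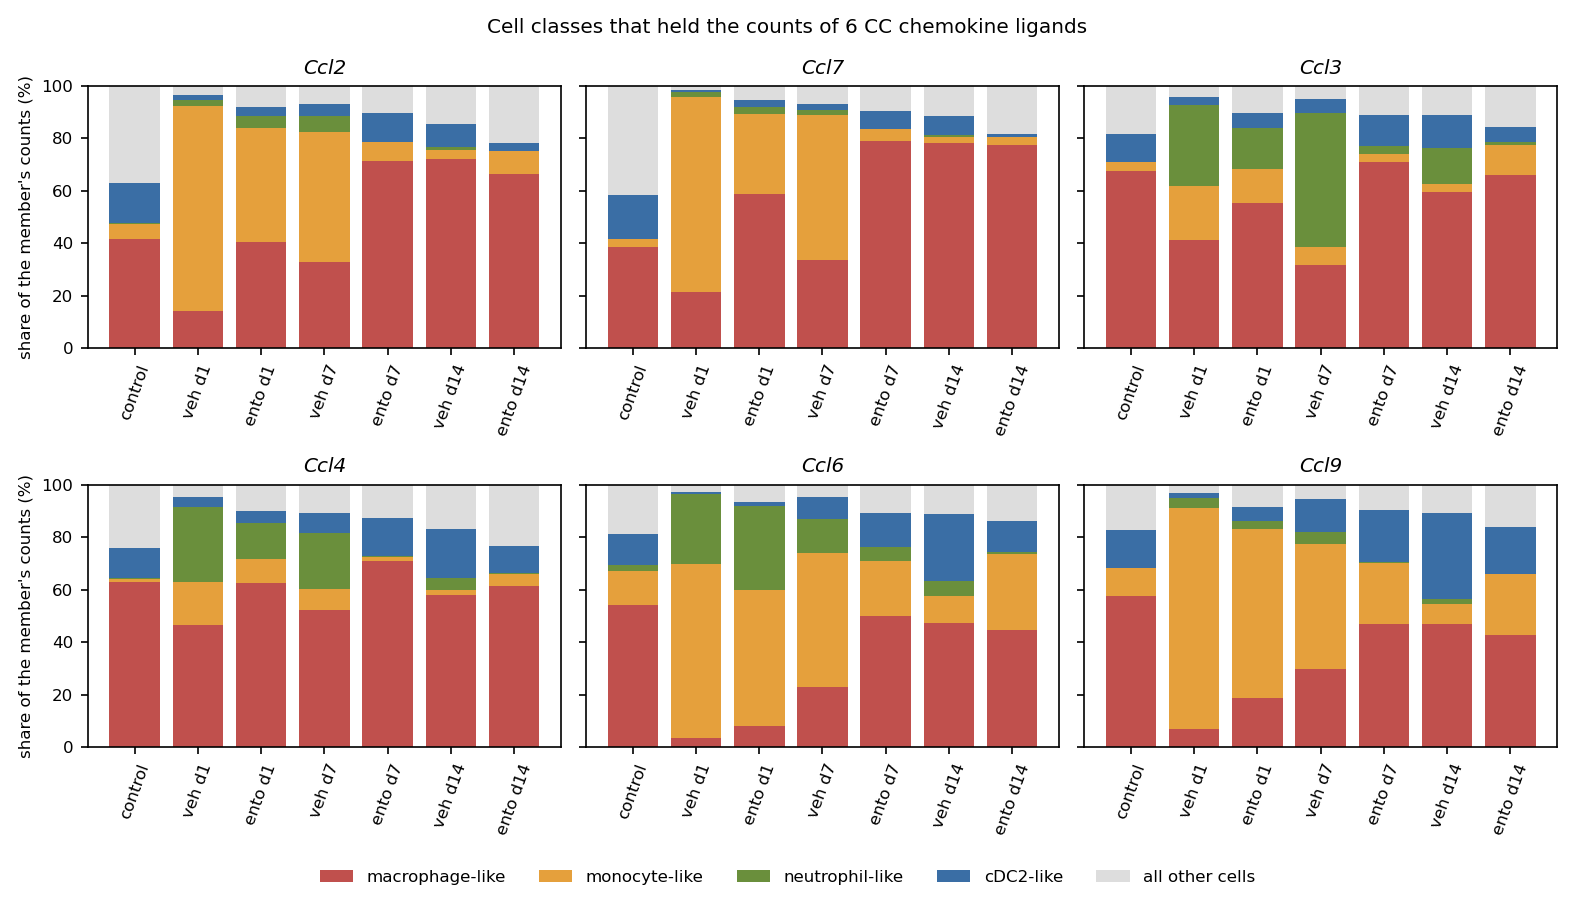
Share of the counts of 6 members (vertical axis, percent) that fell in macrophage-like, monocyte-like, neutrophil-like, cDC2-like and all other cells, for each of the 7 pools (veh, vehicle; ento, entospletinib; d, day). At day 7 the monocyte-like part of *Ccl2* is 49.6% under vehicle and 7.3% under entospletinib.

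The ratio was also computed with the class shares of counts held as in the vehicle pool, so that only the levels within classes differ. At day 7 the plain log2 ratio of entospletinib to vehicle went from -1.53 to -0.36 for *Ccl6* and from -1.15 to -0.39 for *Ccl9*. It was -0.999 for *Ccl2* (-1.30 as observed) and -2.01 for *Ccl7* (-2.23 as observed). At day 1 *Ccl9* remained at -1.102 (-1.40 as observed), *Ccl7* at -1.75 (-1.59) and *Ccl2* at -0.85 (-0.91), and *Ccl6* went from -1.12 to -0.55, while *Ccl12* turned from 0.42 to -0.23. In single classes *Ccl12* was at 78.8 CPM against 91.4 CPM under vehicle in macrophage-like cells, which overlap, and at 1.996 CPM (15 counts) against 7.45 CPM in monocyte-like cells, which do not. At day 14 *Ccl9* went from -0.92 to -0.42 and *Ccl6* from -0.52 to -0.011. These ratios have no spread over sublibraries and use every class, however small: the smallest class of the entospletinib pool held 49811 counts at day 1, 8851 at day 7 and 6428 at day 14. The neutrophil-like level of entospletinib at day 7 rests on 119 cells, with 66 counts of *Ccl6* (328 CPM, 254 to 418) and 30 of *Ccl3*. For *Ccl3*, with much of its vehicle counts of day 7 in that class, no such ratio is given for that day. At day 14, with 38 neutrophil-like cells under entospletinib, *Ccl3* went from -1.29 to -0.72. With the shares of the control, the ratio of vehicle to control at day 1 was 1.102 in place of 3.25 for *Ccl6* and 3.95 in place of 4.32 for *Ccl7*, which was not tested in all cells. *Ccl9* went from 2.84, 1.87 and 1.55 at the 3 days to 1.30, 1.00 and 1.03. *Ccl3*, which rose at day 7, went from 1.13 to -0.03 there. At day 1 *Ccl12* went from 1.98 to 3.04 and *Ccl5* from -0.59 to 0.77.

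In monocyte-like cells the 4 members *Ccl2*, *Ccl7*, *Ccl6* and *Ccl9* rose under vehicle at days 1 and 7, and *Ccl7* fell most under entospletinib. *Ccl7* was at 1.74 CPM (2 counts, exact 95% interval 0.21 to 6.29 CPM) in the control, at 55.9 ± 6.36, 90.3 ± 18.2 and 9.40 ± 8.92 CPM under vehicle and at 11.7 ± 6.73, 5.14 ± 6.42 and 4.49 ± 5.38 CPM under entospletinib. *Ccl2* was at 15.7 CPM in the control, at 165, 171 and 27.2 CPM under vehicle and at 75.3, 35.2 and 46.4 CPM under entospletinib. At days 1 and 7 the sublibraries of both members were apart between vehicle and control and between vehicle and entospletinib.

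Relative to the median gene, *Ccl7* rose by 4.51 and 5.66 at days 1 and 7 and fell under entospletinib by 2.09 and 4.42. *Ccl2* rose by 3.19 and 3.70, and fell under entospletinib by 2.67 at day 7, with -0.98 at day 1. *Ccl9* rose by 1.71 and 1.70 and fell under entospletinib by 1.02 at day 1, and *Ccl6* rose by 1.52 and 1.82 and fell by 1.43 at day 7. With each cell placed on its own, *Ccl9* at day 1 was at -0.68 and *Ccl6* at day 7 at -0.94, short of the limit. *Ccl3* (27.4 to 43.4 CPM over the 7 pools) and *Ccl4* (26.1 to 58.4 CPM) passed in no comparison there. In counts of members, 4, 4 and 0 rose under vehicle, where 4.87%, 7.57% and 1.37% of genes tested were called higher, and 2, 3 and 0 fell under entospletinib, where 1.04%, 6.18% and 1.12% were called lower. The 11 neutrophil markers summed in monocyte-like cells to 385 CPM in the control, to 878, 344 and 435 CPM under vehicle and to 668, 358 and 343 CPM under entospletinib, and the 10 macrophage markers to 1110.2 CPM in the control, to 1666, 1379 and 1477 CPM under vehicle and to 1408, 1365 and 1273 CPM under entospletinib. Both classes carry *Ccl6*, and the part of these markers in the result was not tested. The control (1149346 monocyte-like counts) and the later entospletinib pools were shallow, which the SD shows.

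The 2 monocyte-like clusters differed in these genes, so the class ratios also carry the mix of the 2. Cluster 8, led by *Vcan*, *Fn1* and *F13a1*, genes of inflammatory monocytes, had *Ccl2* and *Ccl7* among its own 10 leading genes, and cluster 4, led by *Ace* and *Treml4*, genes of nonclassical monocytes, had little of either. Cluster 8 was 6.61% of monocyte-like cells in the control, 44.6%, 76.1% and 27.1% under vehicle and 21.96%, 14.97% and 16.99% under entospletinib. Within cluster 8 at day 1, *Ccl7* was at 115 CPM under vehicle and 39.2 CPM under entospletinib, a relative ratio of -1.35 ± 0.69 with 8 of 8 sublibraries on that side, and *Ccl9* was at 549 and 305 CPM (-0.65 ± 0.28, 8 of 8). *Ccl2* was at 327 and 270 CPM there (-0.08 ± 0.46, 5 of 8), a difference within its spread. Within cluster 4 *Ccl7* was at 3.27 and 3.14 CPM (0.12 ± 1.21) and *Ccl2* at 22.2 and 14.5 CPM (-0.46 ± 0.99). Cluster 4 *Ccl2* was at 15.1 CPM in the control and 22.2 CPM under vehicle at day 1 (0.35 ± 1.43), a difference within its spread.

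*Ccl24* was read almost only in cluster 8, with 246 of its 270 counts of vehicle day 1 there. Among monocyte-like cells it had 260, 61 and 1 counts under vehicle, 12, 2 and 0 counts under entospletinib and 0 in the control, where the limit of 3 counts is 2.61 CPM. At day 1 this was 7.91 CPM against 1.60 CPM, and at day 7 16.4 CPM against 1.71 CPM, and within cluster 8 at day 1 the ratio was -1.25 ± 1.76.

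In macrophage-like cells, *Ccl2* and *Ccl7* rose with IRI at each day, *Ccl12* at days 1 and 14, and *Ccl3* and *Ccl4* at day 1. *Ccl2* was at 10.4 ± 4.62 CPM in the control, at 108, 55.1 and 50.9 CPM under vehicle and at 90.1, 53.3 and 56.4 CPM under entospletinib, where the treatments overlapped at each day. *Ccl12* was at 9.95 CPM in the control, at 91.4, 18.7 and 20.8 CPM under vehicle and at 78.8, 26.7 and 14.0 CPM under entospletinib. *Ccl7* was at 1.99 CPM in the control, at 58.6, 26.5 and 27.9 CPM under vehicle and at 29.0, 14.6 and 18.4 CPM under entospletinib.

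*Ccl2* rose by 3.19, 2.68 and 2.36 and *Ccl7* by 4.68, 3.99 and 3.86 at days 1, 7 and 14, and *Ccl12* by 3.02 at day 1 and 1.14 at day 14. *Ccl3* and *Ccl4* rose by 1.79 and 2.01 at day 1 and were within 0.15 of the median gene at days 7 and 14. *Ccl9* rose by 1.01 at day 7, with 0.98 and 0.96 on the other days, and *Ccl6* was at 0.50, 0.97 and 0.78. These values depended on how the class was drawn: with each cell placed on its own, *Ccl9* was at 1.70 at day 1 and 0.85 at day 7, *Ccl6* at 1.36 at day 1, and *Ccl12* at 0.62 at day 14. Inside clusters 1 and 5 at day 1, *Ccl9* was at -0.42 and 0.17 and *Ccl6* at 0.03 and 0.00. At day 7 *Ccl9* was at 0.25 and 0.85 there and *Ccl6* at 0.18 and 1.13. Without sublibrary s6 the ratio of *Ccl12* at day 14 was also below the limit of size. In all, 5, 3 and 3 members rose, where 6.6%, 3.39% and 3.72% of genes tested were called higher.

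Under entospletinib 0, 1 and 0 members fell in macrophage-like cells, where 0.349%, 1.76% and 1.55% of genes tested were called lower. The 1 member was *Ccl7* at day 7 (-1.19 ± 0.94), and it lost its call in 5 of the other settings and without sublibrary s1, although its ratio over the settings that change the cells, the scaling or the limits ran from -1.33 to -1.09. The 10 monocyte markers summed in macrophage-like cells to 71.1 CPM in the control, to 235, 438 and 366 CPM under vehicle and to 169, 198 and 177 CPM under entospletinib, and their part in *Ccl2* and *Ccl7* was not tested. *Ccl2* differed from vehicle by -0.16, -0.38 and 0.05. *Ccl9* was at -0.71 ± 0.47, -0.69 ± 0.47 and -0.86 ± 0.38, below the limit of size but with 8 of 8 sublibraries on the same side at each day. Without overlap of sublibraries but below the limit of size, *Ccl3* was lower under entospletinib at day 1 (163 against 265 CPM, -0.60 ± 0.36) and day 14 (39.7 against 71.2 CPM, -0.94 ± 0.50), *Ccl6* was lower at day 1 (57.3 against 98.7 CPM, -0.69 ± 0.20), as was *Ccl9*, and *Ccl4* was higher at day 7 (233 against 120 CPM, 0.63 ± 0.27). Inside cluster 5 at day 1, *Ccl3* was at -0.41 ± 0.28, *Ccl6* at -0.74 ± 0.41 and *Ccl9* at -0.65 ± 0.47, each with 8 of 8. Inside cluster 1 they were at 0.77 ± 1.04 (6 of 8), -0.69 ± 0.99 (5 of 8) and 0.30 ± 0.90 (6 of 8), each within its spread. At day 14 *Ccl3* was at -0.99 ± 0.65 in cluster 1 and -0.77 ± 0.58 in cluster 2, each with 8 of 8.

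**Figure D4:**
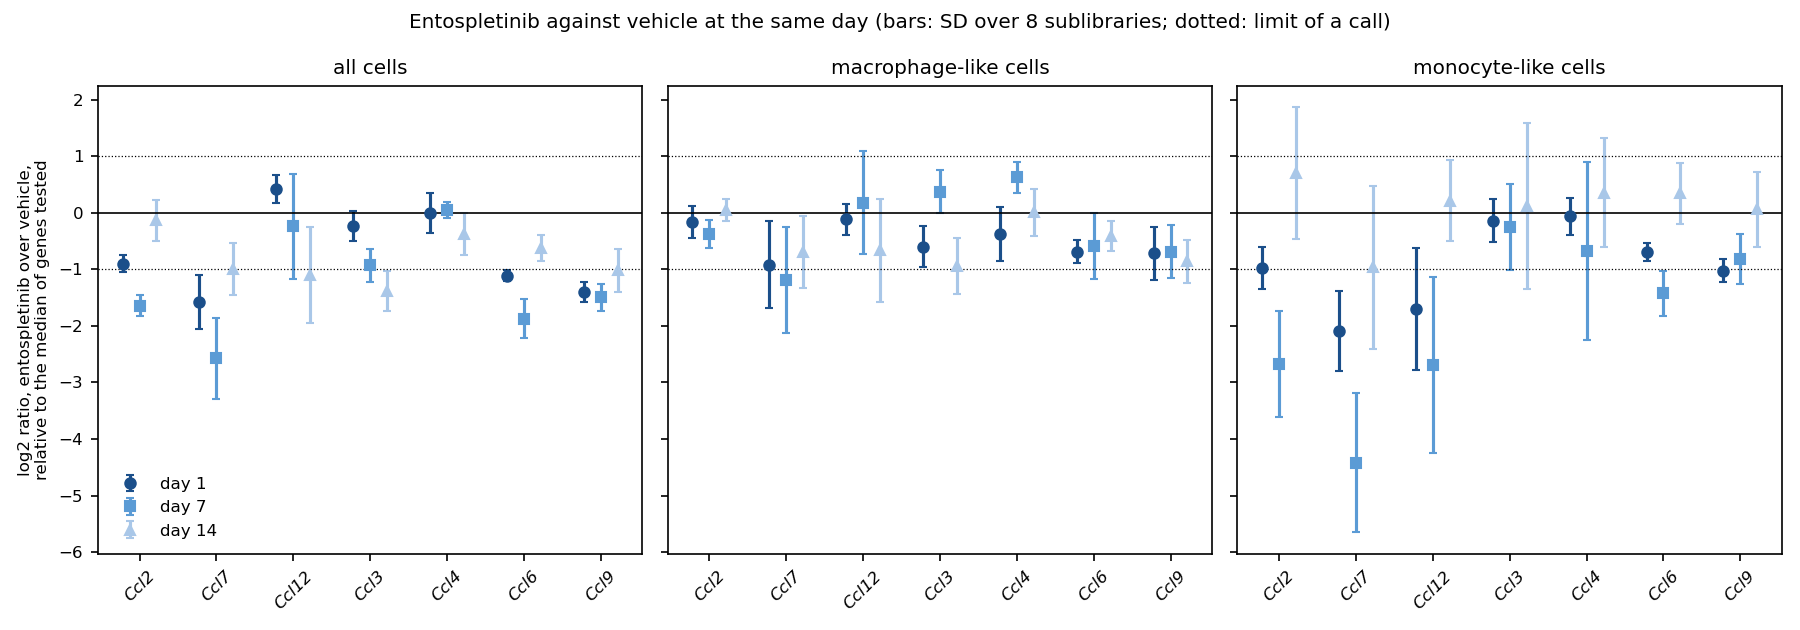
Log2 ratio of entospletinib to vehicle at the same day, relative to the median of genes tested (vertical axis), for 7 members in all cells, macrophage-like cells and monocyte-like cells. Points are pools, bars the SD over 8 sublibraries, and dotted lines the limit of a call; *Ccl7* and *Ccl12* in all cells and *Ccl12* in monocyte-like cells were not tested, and *Ccl7* of monocyte-like cells at day 7 is the lowest point at -4.42.

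The 3 macrophage-like clusters, numbered 1, 2 and 5, shared the markers of the class. Cluster 5, led by *Ch25h*, *Plau* and *Mmp12*, with *Ccl12* and *Ccl4* among its 10 leading genes, was 7.56% of the class in the control, 81.8%, 29.3% and 31.3% under vehicle and 53.5%, 14.2% and 4.58% under entospletinib. Cluster 1 was 76.3% of the class in the control and 66.7% under entospletinib at day 7, and cluster 2, led by *Cx3cr1* and *Slco2b1* among others, was 77.7% under entospletinib at day 14. Cluster 2 was shallow, with a median of 1228 counts a cell against 2793 and 3304 in clusters 1 and 5, and so was that pool, with a median of 960 counts against 2071.5 to 2930 in the others. The part of depth in this share was not tested.

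At day 1 the CCR2 ligands were also higher than in the control inside clusters 1 and 5. In cluster 1, *Ccl2* went from 9.09 CPM in the control to 77.9 CPM under vehicle at day 1 (2.85 ± 1.04, 8 of 8 sublibraries), *Ccl12* from 9.76 to 112 CPM (3.27 ± 1.07, 8 of 8) and *Ccl7* from 2.201 to 67.4 CPM (4.67 ± 2.53, 8 of 8). In cluster 5 the ratios were 1.96 ± 1.26, 2.22 ± 1.36 and 4.24 ± 0.63, each with 8 of 8, the last against 2 counts in the control. At day 14 *Ccl12* was at 1.15 ± 0.84 (8 of 8) in cluster 1, at 1.49 ± 1.28 (6 of 8) in cluster 2 and at 0.42 ± 1.18 (5 of 8) in cluster 5. At day 7 it was at 1.14 ± 1.29 (6 of 8) in cluster 1 and 0.69 ± 2.17 (4 of 8) in cluster 5. For *Ccl3* and *Ccl4* the ratios inside clusters were smaller than in the class: 0.19 ± 0.71 and 1.00 ± 0.89 in cluster 1 and 0.59 ± 0.61 and 0.58 ± 0.43 in cluster 5, none with 8 of 8.

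At day 7 *Ccl4* in cluster 5 differed between the treatments. It was at 370 CPM in the control, at 667, 158 and 168 CPM under vehicle and at 554, 537 and 181 CPM under entospletinib. At day 7 the relative ratio of entospletinib to vehicle was 1.44 ± 0.26 with 8 of 8 sublibraries, and *Ccl3* stood at 196 against 74.7 CPM (1.07 ± 0.61, 7 of 8). Cluster 5 of entospletinib at day 7 had 346 cells. Genes of the immediate early and heat shock response, which respond to tissue digestion as well as to injury, summed to 2792 CPM in macrophage-like cells of the control, 4832, 3120 and 3672 CPM under vehicle and 3357, 3001 and 3166 CPM under entospletinib, highest in the pool where *Ccl3* and *Ccl4* were highest, and their part in the result was not tested. The 11 neutrophil markers summed to 176 CPM in macrophage-like cells of the control and to 642 and 467 CPM in vehicle and entospletinib of day 1, and their part in *Ccl3* and *Ccl4*, which neutrophil-like cells also carry, was not tested.

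**Figure D5:**
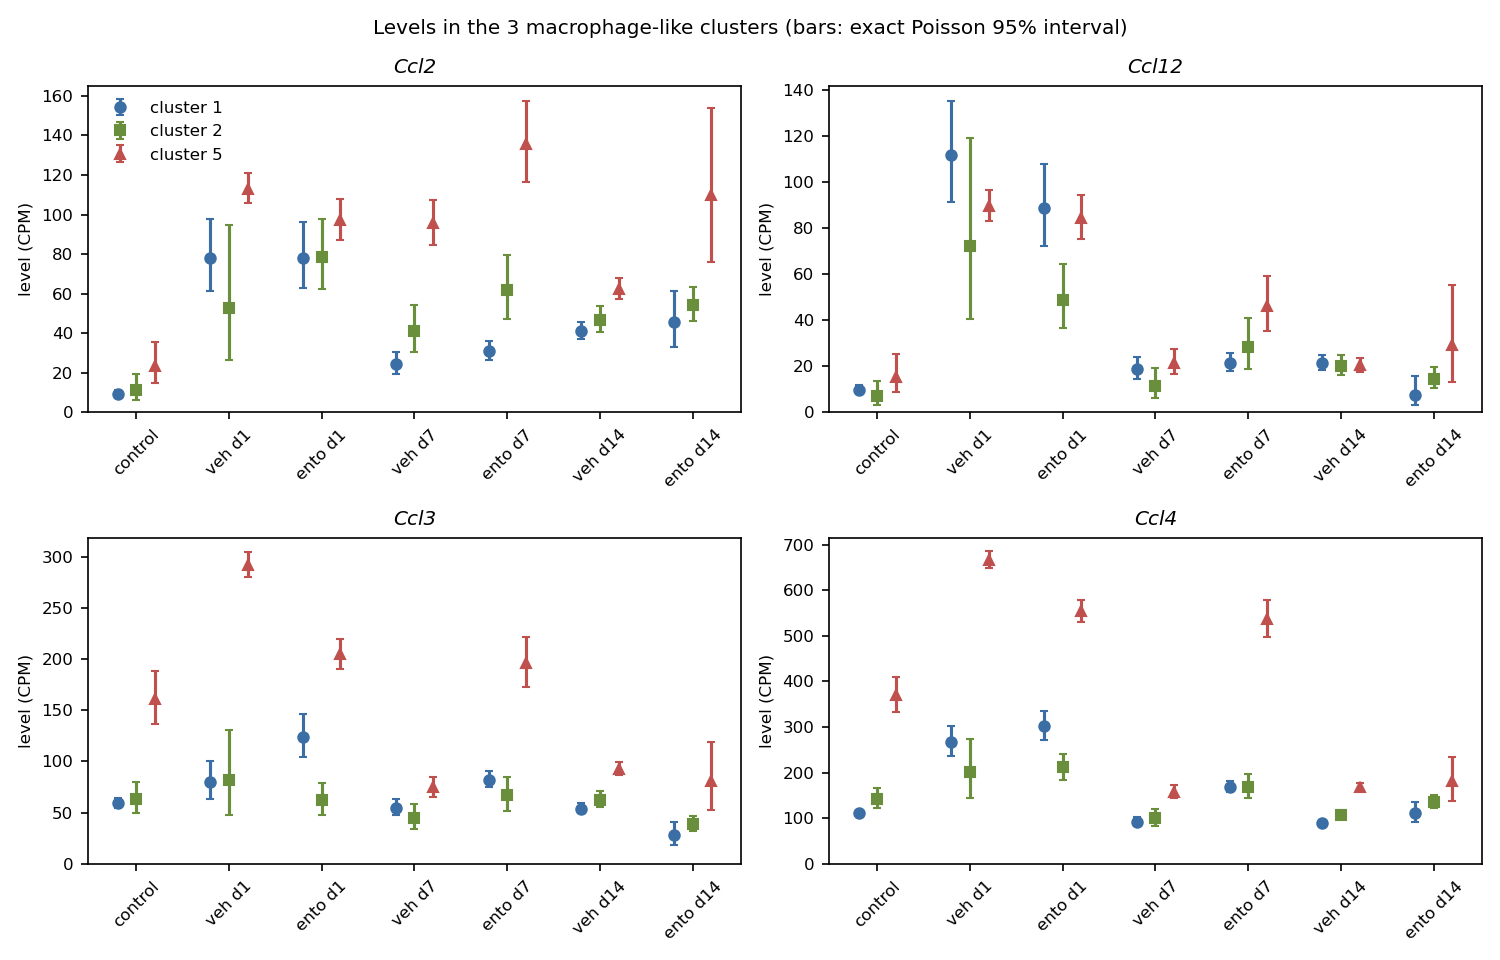
Levels of *Ccl2*, *Ccl12*, *Ccl3* and *Ccl4* (vertical axes, CPM, from 0) in macrophage-like clusters 1, 2 and 5 by pool, with exact Poisson 95% intervals, which cover counting error only. In cluster 5 *Ccl4* of entospletinib day 7 is at 537 CPM and that of vehicle day 7 at 158 CPM.

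In neutrophil-like cells the pools of control (66 cells) and of entospletinib at days 7 and 14 (119 and 38 cells) were too small for ratios. Under vehicle *Ccl3* was at 123, 296 and 175 CPM and *Ccl4* at 232, 146 and 107 CPM at days 1, 7 and 14, while *Ccl6* was at 474, 169 and 124 CPM. At day 1 under entospletinib they were at 97.4, 211 and 484 CPM, each overlapping under vehicle over sublibraries. The most *Ccl6* was in cluster 11, led by *Retnlg* and *S100a8*, genes of freshly released neutrophils, with 660 CPM at vehicle day 1 against 380 CPM in cluster 0, and *Ccl3* ran the other way with 43.2 and 163 CPM. Cluster 11 was 25.2% of neutrophil-like cells at vehicle day 1 and 0.81% and 0.72% at days 7 and 14.

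Among genes that pair with these ligands, the receptor list held 10 CC receptors, of which 4 were tested in all cells. Under vehicle 2, 3 and 2 rose, where 10.9%, 7.17% and 4.81% of genes tested were called higher. Under entospletinib 1, 1 and 2 fell, where 1.39%, 5.49% and 3.52% of genes tested were called lower. The median relative ratios over all 10 were 0.96, 1.18 and 1.14 under vehicle, and -0.52, -0.44 and -0.91 under entospletinib. *Ccr1*, the receptor of CCL3, CCL6 and CCL9, was at 9.91 CPM in the control, at 226, 88.1 and 51.0 CPM under vehicle and at 106, 24.6 and 15.03 CPM under entospletinib, and was highest in neutrophil-like cells (599 CPM). *Ccr2* was at 159 CPM in the control, at 356, 312 and 384 CPM under vehicle and at 206, 282 and 150 CPM under entospletinib, highest in monocyte-like cells (566 CPM).

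Of 4 atypical receptors, which bind chemokines without classical signaling, *Ccrl2* alone was tested, and it rose at each day and fell under entospletinib at each day, from 158, 136 and 93.1 CPM to 64.7, 30.5 and 28.0 CPM. In macrophage-like cells *Ccr1* rose at each day (3.13, 2.75 and 2.39) and fell under entospletinib at days 7 and 14 (-1.01 and -1.40), and *Ccr2* fell at day 14 (-1.09). Of 11 other CC ligands 1 was tested (*Ccl25*, named for that reason after its values were seen) and none was called.

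The genes most like each member were sought over 97 units of class and condition by the Pearson correlation of log2(CPM + 10), a description, since units share libraries, depth and cell class. *Lrp1* (r = 0.72) and *Csf1r* (0.71), the receptor of a macrophage growth factor, were among the 3 genes closest to *Ccl2*, and the complement genes *C1qb* (0.63) and *C1qc* (0.62) among the 3 closest to *Ccl7*. *Ccl12* was closest to *C1qa* (0.78), *C1qc* (0.74) and *C1qb* (0.74). For *Ccl3* the order was *Gm49339* (0.83), *Lilrb4b* (0.82) and *Itgam* (0.81), and for *Ccl4* it was *Cyth4* (0.83), *Tyrobp* (0.83) and *Itgax* (0.79). *Klrk1* (0.81), an NK cell receptor, *Il12rb2* (0.80) and *Il2rb* (0.79) led for *Ccl5*. *Emilin2* (0.91) and *Igsf6* (0.91) led for *Ccl6*, and *Sirpb1a* (0.83), *Bach1* (0.82) and *Lyz2* (0.80) for *Ccl9*. Among members the closest pairs were *Ccl6* with *Ccl9* (0.80), *Ccl2* with *Ccl7* (0.78) and *Ccl3* with *Ccl4* (0.73), each pair neighbors within its group on chromosome 11.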

How the data were processed

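Single-cell RNA libraries (Parse Evercode) each mixed the 7 conditions, and every barcode was given its condition by the deposited cell table. The authors aligned reads to mm10 with the Parse pipeline, collapsed them to transcripts and deposited raw counts per cell and gene, 388617036 counts in 120281 barcodes, with no normalization. Cells with more than 300 genes, fewer than 20000 counts, under 25% mitochondrial and under 1.5% ribosomal protein gene counts were kept, and genes seen in at least 5 cells. Cells were clustered (4000 genes, 40 principal components, 15 neighbours, Leiden resolution 1) with scanpy 1.11.5 and leidenalg 0.10.2, and a cluster was named when at least 3 markers of a class were among its 100 leading genes. No cell annotation by the authors was used here. Doublets were called among 30 neighbours (8.80% of cells) and kept, except that clusters mostly of called doublets stayed unnamed.

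Counts were summed per class and condition as CPM. Per-sublibrary ratios had 0.5 counts added, and a comparison needed at least 500000 counts in each pool, a limit set after the data were seen. Intervals are exact 95% Poisson (levels) or binomial (shares) and cover counting error only. The calling rule was tried on simulated Poisson counts drawn from the macrophage-like profile with planted changes. That simulation held no variation between mice or pools, so it does not measure this error. Named genes are the members, the listed receptors and other ligands that were called, and, for members with at least 500 counts, the 3 genes closest in pattern. Some genes that this rule names are not reported here. The members and lists were chosen with earlier results of these data known. Alternatives were: no ribosomal limit, more than 500 genes per cell, doublets removed, each cell assigned on its own, leukocyte-like cells only, TMM scaling (edgeR 4.0.16), 50 and 5 CPM as the limit for a test, cells thinned to 500 counts, each sublibrary left out, and single clusters, the last chosen after seeing the data. Work was done in Python 3.11.15 and R 4.3.3.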

Additional observations from a re-analysis of the deposited data

Results flagged for a closer look

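Over 53 sets of 8 sublibraries (a member in a condition, all cells), 2 had a sublibrary far from the others, and chance alone gives about 1 in 20. *Ccl12* of vehicle day 1 was at 21.6 CPM in sublibrary s7, with the next at 16.6 CPM. *Ccl2* of entospletinib day 14 was at 15.1 CPM in sublibrary s5, with the next at 27.9 CPM.

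Barcodes outside the quality limits, which no comparison of the main setting uses, also held these transcripts. Those outside the ribosomal limit alone enter the setting without that limit. The 10 members summed to 51.5 CPM there in the control, to 213.9, 223.4 and 241 CPM under vehicle at days 1, 7 and 14 and to 377, 87.3 and 136 CPM under entospletinib. In the cells that passed, the sums were 195 CPM in the control, 953, 535 and 390 CPM under vehicle and 565, 315 and 269 CPM under entospletinib.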

How the results depend on the processing

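Of 44 ratios of members that were called, 43 kept their direction in each setting that gave a value. The exception was *Ccl7* in monocyte-like cells at day 1, entospletinib against vehicle, which was -2.09 in the class and 0.12 within cluster 4 alone. In all cells, the members that rose at day 1 went from 5 to 3 with leukocyte-like cells only, and at day 14 from 3 to 5 with a limit of 5 CPM. Members that fell with entospletinib at day 1 went from 2 to 1 with leukocyte-like cells only or thinned cells, and at day 7 from 3 to 5 with a limit of 5 CPM. At day 14 they went from 2 to 1 with no ribosomal limit, more than 500 genes, doublets removed, leukocyte-like cells only, a limit of 50 CPM or thinned cells, to 4 with a limit of 5 CPM, and to between 1 and 2 when each sublibrary was left out (1 without s1, s5 or s8). In macrophage-like cells, members that rose at day 14 went from 3 to 1 with a limit of 50 CPM. Members that fell with entospletinib at day 1 went from 0 to 3 (*Ccl7*, *Ccl6* and *Ccl9*) with each cell assigned on its own and to between 0 and 1 with sublibraries left out (1 without s1). At day 7 they went from 1 to 0 with more than 500 genes, doublets removed, each cell assigned on its own, a limit of 50 CPM or thinned cells, and to between 0 and 1 with sublibraries left out (0 without s1). At day 14 they went from 0 to 1 with no ribosomal limit, more than 500 genes or TMM scaling, and to between 0 and 1 with sublibraries left out (1 without s6 or s8). These counts of members stand without the share of all genes tested that the same setting called. They show only how the calls of members moved, and the cause was not tested. TMM scaling moved the median of genes at vehicle day 1 in all cells from -0.04 to -0.24. Pools of 1 condition, the sort and the depth of entospletinib day 14 (960 counts per cell) limit what these values can show. Ratios were also taken within each sublibrary, which pairs technical portions only. No analysis paired over mice was possible, because each condition is a single pool and the 8 deposited samples are all of 1 group.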
